A study of Homo sapiens with 6 samples.

Results

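Among the 7873 shRNAs of the pooled library, 40 were listed against mRNAs of 5 classical tumour suppressor genes, and their fate during the survival screen in HUH7 cells is described here gene by gene. They were found in the annotation of the library as shRNAs whose target transcript carries an NM_ or XM_ identifier and the gene symbol APC, MAP2K4, RB1, SMAD4 or VHL. APC had 15 of them on 3 transcripts, VHL had 10 on 2 transcripts, and MAP2K4, RB1 and SMAD4 had 5 each on 1 transcript. HUH7 is an established human hepatocellular carcinoma line. The input library (3 sequencing libraries) was the plasmid pool before virus production. The selected group (3 libraries) was genomic DNA of HUH7 cells infected with the packaged pool at an MOI of 0.3, given puromycin 2 days later for 4 days, and then cultured for 4 weeks, which the series' design text but not the study's methods places under selection. Both groups carry the same pLKO.1 vector with a puromycin resistance marker. The labels list HUH7 as the cell line of the input samples as well, although their design text calls them the plasmid pool before virus production. The labels do not say whether replicates came from independent infections, and the p-values speak only to variation among these 6 libraries, some or all of which may be technical.

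The 5 genes act in separate growth-restraining pathways. APC is a scaffold of the complex that marks beta-catenin for destruction, and its loss switches on Wnt target genes. SMAD4 is the common partner of the SMAD proteins that carry TGF-beta and BMP signals to the nucleus, signals that halt division of normal hepatocytes. MAP2K4 (MKK4) is a kinase that activates JNK and p38 under stress, and in mouse liver its silencing is known to favour regeneration. RB1 encodes the retinoblastoma protein, which holds back E2F transcription factors and entry into S phase. VHL is the substrate receptor of the ubiquitin ligase that removes HIF-alpha when oxygen is present. In a pooled screen the integrated cassette serves as a tag for the cells that carry it. An shRNA can become rarer when its cells grow or survive less well than the rest, and more common when they do better. Here the comparison starts from the plasmid pool, so it also spans virus packaging, infection and puromycin selection. Changes that arose in these steps cannot be told apart from changes during the culture.

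Each shRNA was designed against a target of 21 bases, and its guide strand is the reverse complement of that target. The targets below are those of the shRNAs that changed most in each gene, of the shRNAs that tell isoforms apart, and of an APC pair with one shared seed. They are written 5′ to 3′ as the strand of the mRNA, and capitals mark positions 14 to 20, which pair with the seed of the guide (bases 2 to 8).
APC NM_001127510.2 shRNA 2: agtacaaggatgcCAATATTa
APC NM_000038.5 shRNA 2: ggaaactgaggcaTCTAATAt
APC NM_001127511.2 shRNA 1: cgtctggcaggaaGTACTTAa
APC NM_001127511.2 shRNA 3: cagagaaagtactGGATATTt
APC NM_000038.5 shRNA 5: gaaagtggaggtgGGATATTa
SMAD4 NM_005359.5 shRNA 5: ttgcagatagctaTCTAAATa
MAP2K4 NM_003010.2 shRNA 3: tctggacagaagtGGAAATAt
RB1 NM_000321.2 shRNA 1: ctaaacgatacgaAGAAATTt
RB1 NM_000321.2 shRNA 2: gaggagtatgattCTATTATa
RB1 NM_000321.2 shRNA 3: ctggagggaacatCTATATTt
VHL NM_000551.3 shRNA 3: atatcacactgccAGTGTATa
VHL NM_000551.3 shRNA 4: tgcccattagagaAGTATTTa
VHL NM_198156.2 shRNA 1: cacagctaccgagTGTATACt
VHL NM_198156.2 shRNA 5: cctagtcaagcctGAGAATTa

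All 40 targets were found in GENCODE transcripts of the gene they are listed for, 29 in coding sequence and 11 in the 3′ UTR. In the GRCh37 genome 34 matched a single place, and the targets of MAP2K4 shRNA 1 and shRNA 2 also matched its pseudogene MAP2K4P1 on chromosome X. The other 4 have no uninterrupted match because they span a splice junction. Targets of a gene share no bases, except that VHL NM_000551.3 shRNA 3 and NM_198156.2 shRNA 1 have the first 6 bases they cover in the final exon in common.

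Of the 40 shRNAs, 35 passed the filter (10 or more counts on average over all 6 libraries) and were tested. 2 were depleted (5.71%) and 1 was enriched (2.86%), beside 6.83% depleted and 5.85% enriched among all 7232 tested shRNAs. Depleted means a log2(fold change) of input over selected of at least 0.75 and enriched one of at most -0.75. Both also need an edgeR quasi-likelihood p-value, adjusted over the whole library, of 0.05 or less. A positive value therefore marks an shRNA that fell. The median log2(fold change) of the 35 was -0.05, beside -0.01 for all tested shRNAs, and the values ran from -1.57 to 1.18. The lowest value is that of the enriched shRNA, which was rare in the input and passed the filter only through the selected libraries. No gene met the rule that the study applied to lncRNAs (at least 2 shRNAs at 1, or at least 3 at 0.75), nor its mirror image.

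At the same adjusted p-value with no limit on the fold, 8 of the 35 fell (22.9%) and 7 rose, beside 15.4% and 17.4% of all tested shRNAs. Among 490 tested shRNAs against other protein-coding genes, 19.4% fell and 13.7% rose, so the share that fell was closer to that of the 35. The tumour suppressor shRNAs were abundant in the plasmid pool, with a median of 473 normalized counts against 283 for all tested shRNAs. Those against other protein-coding genes had a median of 366. Of the 35, 17 lay in the highest of 4 equal groups by input abundance, where 21.7% of all shRNAs fell and 17.5% rose, and 6 of these 17 fell and 4 rose. The standard error of the log2(fold change) had a median of 0.10 in that group and of 0.32 in the lowest one, so smaller changes could pass the test among abundant shRNAs. In 9 of the 35 all selected libraries lay below all input libraries and in 7 above, where 25.6% of all tested shRNAs did the first and 25.6% the second.

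The shRNAs against APC moved in both directions, and the single strongest fall of the whole set was among them. All 15 were tested, with 1 depleted, 1 enriched, 3 fallen and 3 risen at any size, and a median log2(fold change) of 0.10. APC NM_001127510.2 shRNA 2, against chr5:112173498-112173518 (GRCh37, plus strand) in the coding part of the last exon, exon 16, had 494, 401 and 429 normalized counts in input replicates 1 to 3 and 176, 188 and 216 in selected replicates 1 to 3. The groups are far apart, with the highest selected library below the lowest input library. The log2(fold change) was 1.18 ± 0.14 (SE, here and below), with an edgeR adjusted p = 0.000976. Its 7-base seed occurs in no other guide of the library.

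The other 4 shRNAs on the same transcript target exon 16 as well, and none of them passed. Their log2(fold change) values lay between -0.33 for shRNA 4 and 0.19 for shRNA 3. shRNA 4 had 540, 515 and 499 normalized counts in the input libraries and 790.4, 649.8 and 534 in the selected libraries (adjusted p = 0.0912). Its selected replicate 3 lay inside the range of the input libraries.

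2 more APC shRNAs fell by less than the fold limit, and both were well represented. APC NM_001127511.2 shRNA 3, in exon 4 at chr5:112103046-112103066, went from 788, 887 and 876 normalized counts to 589, 579.9 and 581 (log2(fold change) 0.54 ± 0.08, edgeR adjusted p = 0.00221). The selected libraries lay closer to each other than the input libraries did, and well below them. APC NM_000038.5 shRNA 3, in exon 15 at chr5:112170693-112170713, went from 999, 1018 and 1144 to 623, 719 and 837 (log2(fold change) 0.53 ± 0.11, edgeR adjusted p = 0.00798). These shRNAs, like the others described below that passed by less than the fold limit and are not the extreme of their gene, were picked out after their values had been seen.

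APC shRNAs that became more common included a rare one and a pair of common ones. APC NM_000038.5 shRNA 2, in exon 2 at chr5:112090698-112090718, had raw counts of 12, 4 and 7 in the input libraries and 12, 27 and 39 in the selected libraries. On the normalized scale that is 12.1, 4.55 and 7.24 against 21.6, 24.2 and 26.1, with no overlap between the groups. Its log2(fold change) was -1.57 ± 0.50 (edgeR adjusted p = 0.0398). It passed the filter on low counts only through the selected libraries. The call was lost in 8 of the 15 alternative settings in which it was tested. Among them were each setting without an input library (edgeR adjusted p = 0.0753 to 0.180) and the one that leaves out selected replicate 3 (0.0633). Over the whole library, too, fewer shRNAs were called without an input library. Then 253 to 279 were depleted (494 with all 6 libraries) and 288 to 301 enriched (423 with all 6 libraries).

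APC NM_001127511.2 shRNA 2, in exon 3 at chr5:112102072-112102092, rose from 406, 351 and 370.5 to 544, 500.1 and 557 normalized counts (log2(fold change) -0.51 ± 0.11, edgeR adjusted p = 0.00810). APC NM_001127511.2 shRNA 4, in exon 12 at chr5:112162811-112162831, rose from 775, 821 and 782 to 966, 1003 and 1027 (log2(fold change) -0.34 ± 0.07, edgeR adjusted p = 0.00788). Both shRNAs had every selected library above every input library. The pass of shRNA 2 was lost without input replicate 2 (0.0576 for the edgeR adjusted p) or 3 (0.0539), and that of shRNA 4 without input replicate 1 (0.0589) or 3 (0.0568). Their targets are held by all 6 protein-coding APC transcripts of the annotation, as are those of shRNA 3 on the same RefSeq transcript and of APC NM_001127510.2 shRNA 2, which fell.

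APC NM_001127511.2 shRNA 1 is specific to 1 isoform, since its target crosses the junction of the first 2 exons and occurs in 1 of the 6 protein-coding transcripts. It had 226, 250.1 and 203 normalized counts in the input libraries and 210.2, 222 and 173 in the selected libraries. The groups overlap, and the log2(fold change) was 0.17 ± 0.16 (edgeR adjusted p = 0.455). The neighbouring targets of APC NM_000038.5 shRNA 4 and shRNA 5 in exon 15 lie end to end, from chr5:112170780-112170800 to chr5:112170801-112170821, and gave values of -0.19 and 0.16 that did not pass.

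SMAD4 was the one gene of the 5 in which every tested shRNA had a value above 0. Of all 7232 tested shRNAs, 3546 had a value above 0. SMAD4 shRNA 2 turned below 0 without selected replicate 1. The 4 tested values ran from 0.07 to 0.44 with a median log2(fold change) of 0.29, 2 of them passed, and none reached the fold limit. SMAD4 shRNA 5, in the 3′ UTR of exon 12 at chr18:48608622-48608642, had 839.7, 852 and 863 normalized counts in the input libraries and 631, 652 and 596 in the selected libraries. These groups are separate, with a log2(fold change) of 0.44 ± 0.08 (edgeR adjusted p = 0.00375).

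SMAD4 shRNA 1, in the coding part of exon 7 at chr18:48584741-48584761, was among the most abundant shRNAs of the library, above 99.8% of all of them in the input. It went from 1925, 1876 and 1997 normalized counts to 1804, 1376 and 1616 (log2(fold change) 0.28 ± 0.09, edgeR adjusted p = 0.0436). This pass was lost without any one of the input libraries (adjusted p of 0.0968 to 0.143), and also without selected replicate 2 (0.0664 for the adjusted p) or 3 (0.0840).

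SMAD4 shRNA 4, also in the 3′ UTR, had 370.3, 365 and 376 normalized counts in the input libraries and 318, 221 and 364 in the selected libraries. The groups did not overlap but the test was not passed (log2(fold change) 0.30, adjusted p = 0.223). SMAD4 shRNA 2, in coding exon 10, had the value nearest to 0 (0.07, edgeR adjusted p = 0.834), and it was -0.11 without selected replicate 1.

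Of a list of 6 genes of TGF-beta and SMAD signalling, the library targets SMAD2 and SMAD3, the receptor-regulated partners of SMAD4. Of their 32 tested shRNAs 1 was depleted, 0 were enriched, 4 fell and 3 rose at any size, with a median log2(fold change) of -0.04. SMAD2 had a median of -0.16 over 15 shRNAs and SMAD3 one of 0.01 over 17, where SMAD4 had 0.29 over 4. The difference between these medians was not tested.

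Of 4 tested RB1 shRNAs 1 fell and 1 rose. Their median absolute log2(fold change) was 0.75, beside 0.33 over all tested shRNAs, and they were rarer in the input, with a median of 199.9 normalized counts against 283 for all tested shRNAs. RB1 shRNA 1, in the coding part of exon 10 at chr13:48941643-48941663, was depleted. It had 466, 473 and 479 normalized counts in the input libraries and 235, 298 and 296 in the selected libraries, so that all selected libraries lay below the input. The log2(fold change) was 0.76 ± 0.12 (edgeR adjusted p = 0.00285), just past the fold limit, and it was 0.67 without selected replicate 1.

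The other 3 tested RB1 shRNAs had values below 0. RB1 shRNA 2, in exon 22 at chr13:49039161-49039181, rose from 224, 239 and 237 to 487, 257 and 433 normalized counts (log2(fold change) -0.74 ± 0.22, edgeR adjusted p = 0.0286). RB1 shRNA 3, in exon 23 at chr13:49039414-49039434, had 42.5, 47.7 and 44.5 in the input libraries and 108, 40.3 and 99.8 in the selected libraries (log2(fold change) -0.86 ± 0.38, edgeR adjusted p = 0.108). For both shRNAs the second selected library stayed near the input level while the first and the third were about as high as each other.

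Without selected replicate 2 both counted as enriched, shRNA 2 at -0.97 (adjusted p = 0.00248) and shRNA 3 at -1.20 (adjusted p = 0.00673). The pass of shRNA 2 was lost without any one of the input libraries (adjusted p of 0.0900 to 0.107) or selected replicate 3 (0.0920). RB1 shRNA 4, in the 3′ UTR, had 172, 148 and 180.1 against 124, 202 and 246, with overlapping groups (log2(fold change) -0.22, adjusted p = 0.513). RB1 shRNAs 1 to 3 all target coding sequence that is held by 2 of the 4 protein-coding transcripts.

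From a list of 11 genes of cell cycle entry the library targets FOXM1, a transcription factor of the division programme that acts downstream of the RB and E2F switch. Among its 21 tested shRNAs 1 was depleted, 3 were enriched, 4 fell and 5 rose at any size (median log2(fold change) -0.03). With PLK1 and KIF11, which drive mitosis, the list of cell division genes had 29 tested shRNAs. Its 1 depleted (3.45%) and 3 enriched shRNAs (10.3%) were all against FOXM1, beside 6.83% and 5.85% of all tested shRNAs. Of 5 tested PLK1 shRNAs 0 fell and 0 rose at any size (median log2(fold change) 0.04). Of 3 tested KIF11 shRNAs 0 fell and 1 rose (median -0.48).

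The VHL shRNAs mostly lay close to 0, apart from a pronounced fall of one abundant shRNA. None of 8 tested shRNAs was depleted or enriched, 1 fell and 2 rose at any size, and the median log2(fold change) was -0.13. Of the 8, 7 had a value below 0 and 1 a value above it, beside 3686 of all 7232 tested shRNAs below 0. VHL NM_000551.3 shRNA 4, in the 3′ UTR at chr3:10191857-10191877, had 1126, 1138 and 1178 normalized counts in the input libraries and 631, 726 and 794 in the selected libraries. It was lower in every selected library (log2(fold change) 0.67 ± 0.09, edgeR adjusted p = 0.00153). It counted as depleted without selected replicate 3 (0.75) and with the libraries scaled on the reporter shRNAs (0.78).

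Both shRNAs that rose lie in the coding sequence of VHL. NM_198156.2 shRNA 5, in exon 3 at chr3:10191511-10191531, had 595, 587 and 570.2 normalized counts in the input libraries and 792, 732 and 846 in the selected libraries (log2(fold change) -0.44 ± 0.09, edgeR adjusted p = 0.00615). NM_000551.3 shRNA 1, in exon 2 at chr3:10188279-10188299, went from 542, 521 and 516 to 699, 615 and 696 (log2(fold change) -0.35 ± 0.09, edgeR adjusted p = 0.0193). Neither group overlapped with its input, but the pass of shRNA 1 was lost without any one of the input libraries (adjusted p = 0.0757 to 0.100).

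The design of the VHL shRNAs distinguishes the full-length mRNA from the one that skips exon 2. NM_000551.3 shRNAs 1 and 2 lie within exon 2 and shRNA 3 crosses from exon 2 to exon 3, with log2(fold change) values of -0.35, -0.14 and -0.21. NM_198156.2 shRNA 1 crosses from exon 1 straight to the final exon, and occurs only in the transcript without exon 2. It had 706, 616 and 729 normalized counts in the input libraries and 693, 687 and 853 in the selected libraries, with a log2(fold change) of -0.13 ± 0.11 (edgeR adjusted p = 0.405). Among these 4 isoform-specific shRNAs, NM_000551.3 shRNA 1 alone passed, and a difference between isoforms was not tested. NM_198156.2 shRNAs 3 and 4, in the 3′ UTR of the last exon, were at -0.02 and -0.06.

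The MAP2K4 shRNAs moved little, with no call past the fold limit among 4 tested, 1 that fell and 1 that rose. MAP2K4 shRNA 3, in the coding part of exon 7 at chr17:12016572-12016592, rose from 617, 610.5 and 676 to 956, 944 and 836 normalized counts (log2(fold change) -0.52 ± 0.09, edgeR adjusted p = 0.00328). All selected libraries lay above all input libraries, and its target matches a single place in the genome. MAP2K4 shRNA 5, in the 3′ UTR of exon 11 at chr17:12045051-12045071, had 1262, 1207 and 1256 in the input libraries and 1087, 1101 and 1068 in the selected libraries (log2(fold change) 0.19 ± 0.06, edgeR adjusted p = 0.0383). The groups did not overlap, but the pass was lost without any one of the input libraries (edgeR adjusted p from 0.1035 to 0.159).

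The target of MAP2K4 shRNA 2 reaches across the junction of exons 6 and 7, but also matches the genome without interruption at chr17:12016549-12016569. That of MAP2K4 shRNA 4 crosses the junction of exons 10 and 11. Neither shRNA passed (log2(fold change) -0.16 and -0.05). For both, the first selected library lay below the whole input range and the second above it. The median of the 4 was -0.11, and its sign turned to 0.06 without selected replicate 2 and to 0.00 when the libraries were scaled on the reporter shRNAs.

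5 of the 40 shRNAs were too rare to test, beside 641 of the 7873 in the library. RB1 shRNA 5, in the 3′ UTR, had 0 counts in all libraries. MAP2K4 shRNA 1 had 0 counts in the input libraries and 0, 0 and 3 in the selected libraries, which is within the floor of 3 counts taken here. VHL NM_000551.3 shRNA 5 had 0, 1 and 3 counts in the input libraries and 0 in every selected library, too few for a fold. SMAD4 shRNA 3 had 27 counts summed over the input and 14 summed over the selected group, and its scaled ratio of input over selected was 2.15 with an exact 95% counting interval of 1.09 to 4.44 that covers counting error only. VHL NM_198156.2 shRNA 2 had 4 counts and 1 count, a ratio of 4.47 with an interval of 0.442 to 220.02. 4 of these 5 target a 3′ UTR, so that 7 of the 11 3′ UTR shRNAs but 28 of the 29 coding shRNAs could be tested. The same split was not made for the rest of the library.

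The targets can also be split by the part of the mRNA they lie in. Among the 7 tested 3′ UTR shRNAs 3 fell and 0 rose at any size, where 15.4% and 17.4% of all tested shRNAs did, with a median log2(fold change) of 0.19. They were abundant in the input, with a median of 691 normalized counts against 468 for the coding shRNAs. Among the 28 tested coding shRNAs 5 fell and 7 rose, with a median of -0.13, and they held both depleted shRNAs and the enriched one. Targets in the 3′ UTR come from 4 genes, APC having none, so this split is not independent of the gene and was not tested.

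shRNAs with one seed in common can share off-target effects, and 3 pairs within the set do so. APC NM_001127511.2 shRNA 3 and APC NM_000038.5 shRNA 5 share the seed site GGATATT, with log2(fold change) values of 0.54 and 0.16. MAP2K4 shRNA 4 and SMAD4 shRNA 3 form the second pair, and APC NM_001127510.2 shRNA 3 and VHL NM_198156.2 shRNA 2 the third, but 1 member of each was too rare to test. Beyond the pairs, 4 of the shRNAs that passed share their seed with 8 or more tested shRNAs of the library (seed-mates) and the others with at most 4. Among them, RB1 shRNA 1, which fell, had 11 tested seed-mates, of which 2 were depleted and 0 enriched (median log2(fold change) 0.32, range -0.32 to 1.19). The enriched APC NM_000038.5 shRNA 2 is not one of these 4. Its 2 tested seed-mates had values of 0.23 and 0.67, on the other side of 0. For MAP2K4 shRNA 3, which rose, the 8 tested shRNAs with its seed had a median of 0.35, 4 fell and 0 rose. For APC NM_000038.5 shRNA 3, which fell, 5 of 8 tested seed-mates fell and 0 rose (median 0.37). For VHL NM_198156.2 shRNA 5, which rose, 4 of 13 rose and 1 fell (median -0.23). Over all tested shRNAs 15.4% fell, 17.4% rose, 6.83% were depleted and 5.85% were enriched. Whether shRNAs with one seed changed alike was not tested. Guides of 3 of the 40 shRNAs carry the seed of a human microRNA of the RefSeq table (7.50%), beside 12.4% of the library.

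The targets are rich in A and T, with a median GC content of 35.7%, beside 47.6% in the library as a whole. For shRNAs against other protein-coding genes it was 42.9%. Set beside other groups of the same fit, 9.76% of 41 tested shRNAs against NF2, another tumour suppressor, were depleted and 0% enriched, and 9.30% and 6.98% of 43 shRNAs against reporter and resistance genes. Other protein-coding genes together had 7.14% depleted and 4.29% enriched among 490 tested shRNAs. Expression of the 5 genes and the depth of their knockdown were not analysed here, since the counts per shRNA carry neither.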

How the data were processed

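The shRNA cassettes of 3 input libraries and 3 selected libraries were amplified by PCR and sequenced. The authors used Cutadapt 1.4.2 to trim reads, aligned these with BWA 0.7.10 to the shRNA sequences of the library and made the counts with SAMtools 1.3 and custom code. The deposited values are whole, unnormalized read counts per shRNA. Input libraries held 2323330 to 2612829 counts in all and selected libraries 1525256 to 4013368. Reads carry no molecular identifiers. A second deposited table gives the target sequence, transcript, symbol and start position of each shRNA.

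Counts were tested in edgeR 4.0.16 (R 4.3.3; TMM, quasi-likelihood test, no block) over the 7232 shRNAs that averaged 10 counts or more, with Benjamini-Hochberg adjustment over all of them. Standard errors (SE) were taken as the size of the log2(fold change) divided by the square root of its F statistic. Normalized counts are counts divided by the effective library size relative to its mean. The test takes 1 spread for both groups, although, once counting noise was removed, input libraries varied by 1.47% (coefficient of variation) and selected libraries by 23.6%. Pairs of input libraries gave a chi-square of 1.09 to 1.12 per degree of freedom, so they differed by slightly more than counting noise, and pairs of selected libraries 10.8 to 11.9. The fit was tested on simulated data, in which all shRNAs of a group had 1 spread. Of 49 shRNAs given a log2(fold change) of 1, 37 were called at the limits used here. Of 49 given -1, 37 were called. All 50 given 2 and all 50 given -2 were called.

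Targets were matched without mismatches to both strands of GRCh37 and to GENCODE release 44 transcripts mapped to it, and exon numbers are those of the MANE Select transcript where it holds the target. The transcripts of all 40 shRNAs have the listed symbol in the RefSeq table. The alternatives changed the scaling (RLE, totals alone, reporter shRNAs), the filter (none, or 100 counts on average), the tool (DESeq2 1.42.0 without or with a beta prior, voom of limma 3.58.1 with group weights) or the edgeR fit (robust spread, replicate block), or dropped 1 library at a time.

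The genes and lists were chosen with earlier results of these data known. The rule names each depleted or enriched shRNA, the highest and lowest tested value per gene, shRNAs with 0 counts in a whole group and pairs whose targets share at least 10 bases, of which there were 0. Of the lists of pathway genes, those for Wnt and APC, for VHL and hypoxia and for JNK and p38 have 0 genes among the mRNA targets of the library.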

Additional observations from a re-analysis of the deposited data

How the results depend on the processing

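The depleted call of APC NM_001127510.2 shRNA 2 held in all 16 alternatives, and that of RB1 shRNA 1 was lost in 3, each time for the fold limit alone. The set counted 1 depleted shRNA with the beta prior of DESeq2, 1 with voom, 3 with reporter scaling and 1 to 3 without 1 library. It counted 0 enriched shRNAs with reporter scaling, at a mean count of at least 100, in DESeq2 with and without the beta prior and with the replicate number as a block, and 0 to 3 without 1 library. Reporter scaling moved the median of all shRNAs by 0.12, and left 4 rises at any size. Without 1 library these rises numbered 2 to 9 and falls 6 to 8, the lower counts of rises without an input library (3, 3 and 2). Over the whole library, depleted calls went from 494 to 253, 279 and 258 without input replicate 1, 2 or 3. Enriched calls went from 423 to 289, 301 and 288. Without selected replicate 1, 2 or 3 there were 603, 569 and 569 depleted and 453, 480 and 462 enriched. Medians per gene moved by less than their spread between selected libraries in every alternative, and ranged without 1 library from 0.00 to 0.12 for APC, -0.27 to 0.06 for MAP2K4, -0.59 to -0.32 for RB1, 0.21 to 0.35 for SMAD4 and -0.19 to -0.06 for VHL. With at least 100 counts on average the RB1 median was -0.19 over the 3 shRNAs left, beside -0.48. SMAD4 shRNA 2 ranged from -0.11 without selected replicate 1 to 0.25 without selected replicate 2. The candidate rule and its mirror image were met by 0 genes in every alternative.

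Same-numbered input and selected libraries did not deviate together (correlations of -0.04 to 0.00). Since the input libraries differed by only slightly more than counting noise, this cannot show whether the numbers pair them. With the replicate number as a block, 2 shRNAs were depleted, 0 enriched, 7 fell and 6 rose. Changes in shRNAs below about 141 normalized counts in the input, the lowest of 4 equal groups, have a median standard error of 0.32 and only large ones can be detected there.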
